A study of Homo sapiens with 4 samples.

Results

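Histone erasers are the enzymes that take acetyl or methyl groups off histone tails. Of the 57820 gene rows of the counts, 36 were taken here as histone eraser genes by a list of symbols: 11 zinc-dependent deacetylases (HDAC1 to HDAC11), 7 sirtuins (SIRT1 to SIRT7) and 18 demethylases. The demethylases were 2 flavin-dependent genes of the LSD family (KDM1A and KDM1B) and 16 genes of the Jumonji C (JmjC) family, from KDM2A to KDM7A with PHF2, PHF8 and JMJD6. Members were found by gene identifier, with symbols and positions from GENCODE on hg19. All 36 passed the filter on low counts and were among the 16468 genes tested.

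The RNA came from SY5Y cells, a human neuroblastoma cell line labelled MYCN wild type, so both groups share the background of 1 cell line. Cells of the control group (2 libraries) were given the solvent DMSO and those of the other group (2 libraries) SGSS05-NS, and RNA was collected 12 h after treatment. The labels give the dose as 3 μM. A figure legend of the study gives the same dose for these cells and its methods a lower one. The study describes a compound named SGSS05-NS3 as a covalent inhibitor of SETD8. That enzyme places a single methyl group on lysine of histone H4 and of p53, and its gene is named KMT5A. The study also names SGSS05-NS among the compounds of the same series, and the labelled compound was taken here as SGSS05-NS3. In the study's enzyme assays SGSS05-NS3 was most potent on SETD8 and also inhibited other lysine and arginine methyltransferases at low micromolar concentrations.

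Acetyl groups neutralise the charge of lysine and are read by activators of transcription, and their removal is carried out by class I, II and IV deacetylases with zinc and by sirtuins with NAD. Most class I enzymes act in the nucleus within co-repressor complexes such as NuRD, SIN3, CoREST and NCoR, whereas class IIa enzymes shuttle between nucleus and cytoplasm and have little catalytic activity of their own. LSD demethylases use flavin and JmjC demethylases use iron, oxygen and 2-oxoglutarate, so that both kinds of demethylation depend on metabolites.

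Gene totals ranged from 21463105 to 25350204 fragments per library. The share of fragments in no annotated exon of the counted strand was 12.4% and 12.3% in DMSO against 16.1% and 15.3% in SGSS05-NS. Its base is all fragments of a library, those unmapped or mapped to several places included. Fragments in exons on the opposite strand can be part of it. This share differs with the treatment, and its part in the values given here was not tested. Of 12 adrenergic neuroblastoma markers, 11 were tested and 8 fell with SGSS05-NS (edgeR adjusted p under 0.001), as did 8.14% of all genes tested. ISL1, DBH and CHGB were not called, with log2 fold changes of -0.615, -0.264 and 0.109. The 12 markers summed to 4944 and 5350 normalized CPM in DMSO and 3040 and 2982 in SGSS05-NS, and TH was near 0 in every library. Markers of other cells were low: the summed level of the 4 leukocyte markers ranged from 0.319 to 0.385 in DMSO and from 1.13 to 1.28 in SGSS05-NS, with CD3E at 0, and that of the 4 epithelial markers from 1.91 to 2.18 and from 2.57 to 3.78, with KRT8 at 0. The 10 mesenchymal markers summed to 227 and 255 in DMSO and to 171 and 167 in SGSS05-NS, with PRRX1 and POSTN at 0; TWIST1, at 152 and 168 against 99.9 and 87.0, was the largest part of that sum and fell by 0.77 on the log2 scale (edgeR adjusted p = 0.000105), and FN1 was at 58.5 and 70.9 against 53.3 and 62.9. KMT5A itself was at 54.6 and 56.8 normalized CPM in DMSO and 82.8 and 83.0 in SGSS05-NS, and rose 1.49-fold (log2 fold change 0.57 ± 0.09 SE, edgeR adjusted p = 0.00037).

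With SGSS05-NS, eraser genes changed in both directions. At an adjusted p under 0.001, 5 members fell, namely HDAC4, HDAC9, HDAC8, KDM4C and KDM4B, and 4 rose, namely KDM6B, JMJD6, SIRT7 and KDM3A. Over all genes tested, 6.37% rose and 8.14% fell at that threshold. The other 27 members did not pass it. At the looser adjusted p of 0.05, 8 members were higher and 12 lower, where 22.6% of all genes tested were higher and 23.7% lower. Both treated libraries lay above both controls for 13 members and below them for 16, against 37.8% and 36.9% of all genes tested, and the groups overlapped for 7 members. The median log2 fold change of the 36 members was 0.02, close to the 0.01 of all genes tested, with a range from -1.68 to 1.52. In bulk RNA a smaller amount of a transcript per cell and fewer cells that carry it cannot be told apart.

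**Figure D1:**
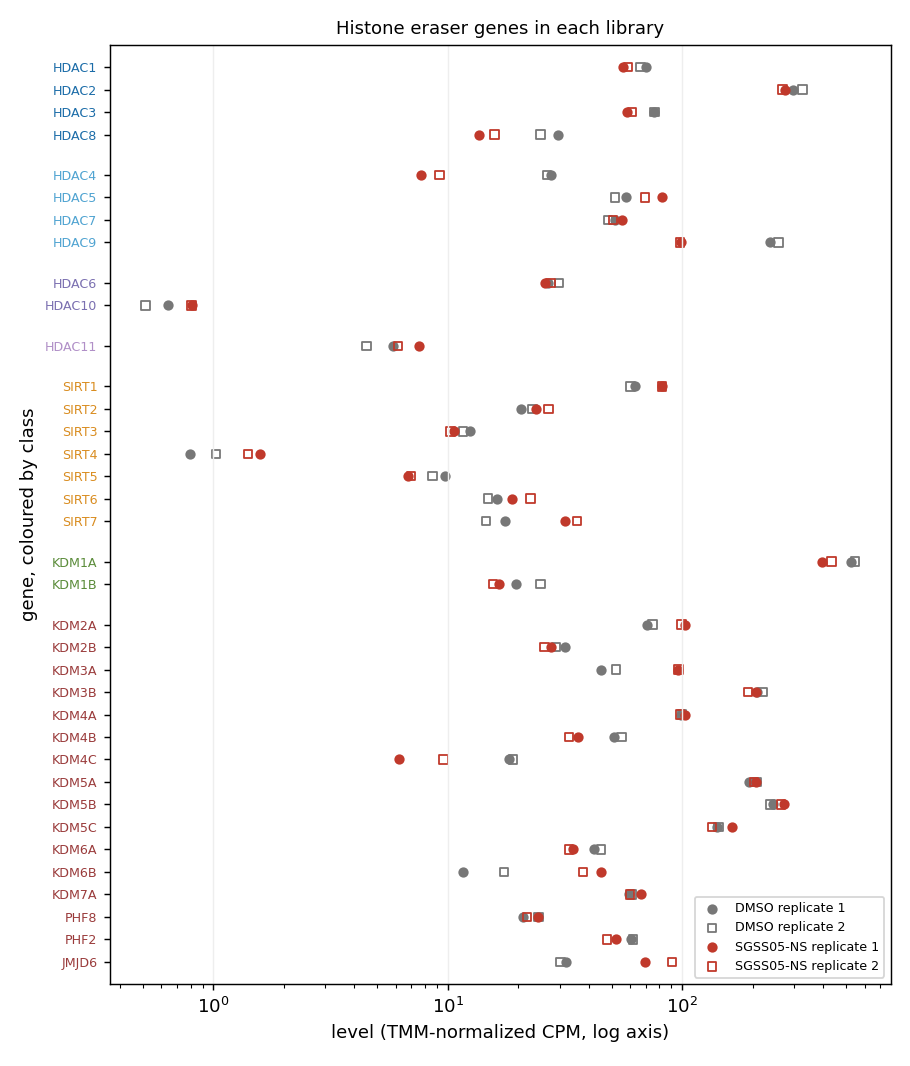
Level of each histone eraser gene in each of the 4 libraries, in TMM-normalized CPM on a log axis, grouped by class; grey symbols are DMSO, red symbols SGSS05-NS, circles replicate 1 and squares replicate 2. The treated symbols lie far left of the controls for HDAC4, HDAC9 and KDM4C and far right for KDM6B and JMJD6; CPM is not divided by gene length, so levels are to be read across libraries within a gene.

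The promoters of 5 members with large changes are shown so that genes that rose can be set beside genes that fell. Each line holds the 250 bases before the transcription start that lies farthest upstream on the gene's strand, from RefSeq on GRCh38.p14, written 5′ to 3′ on the strand of the gene. Capitals mark the GC box GGGCGG, a site known for SP1-like factors, and the E-box CACGTG, a site known for MYC-family factors, on either strand. The windows are chr17:7833967-7834216 for KDM6B and chr2:86441121-86441370 for KDM3A, which rose, and chr2:239401650-239401899 on the minus strand for HDAC4, chr7:18086575-18086824 for HDAC9 and chr9:6757723-6757972 for KDM4C, which fell.
KDM6B: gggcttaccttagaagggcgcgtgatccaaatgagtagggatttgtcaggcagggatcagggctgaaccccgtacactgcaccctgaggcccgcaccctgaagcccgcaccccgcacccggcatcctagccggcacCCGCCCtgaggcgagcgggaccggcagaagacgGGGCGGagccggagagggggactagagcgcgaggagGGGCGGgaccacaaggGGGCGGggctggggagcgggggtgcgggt
KDM3A: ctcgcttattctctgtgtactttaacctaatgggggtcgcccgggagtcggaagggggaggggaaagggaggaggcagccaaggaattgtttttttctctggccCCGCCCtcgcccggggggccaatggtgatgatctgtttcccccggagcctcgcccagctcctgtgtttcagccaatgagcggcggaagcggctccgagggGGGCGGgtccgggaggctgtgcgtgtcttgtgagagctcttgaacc
HDAC4: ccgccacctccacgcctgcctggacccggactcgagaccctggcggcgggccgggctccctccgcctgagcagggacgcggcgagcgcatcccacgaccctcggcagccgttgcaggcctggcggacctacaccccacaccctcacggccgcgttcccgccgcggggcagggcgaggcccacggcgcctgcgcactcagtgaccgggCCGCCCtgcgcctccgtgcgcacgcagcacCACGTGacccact
HDAC9: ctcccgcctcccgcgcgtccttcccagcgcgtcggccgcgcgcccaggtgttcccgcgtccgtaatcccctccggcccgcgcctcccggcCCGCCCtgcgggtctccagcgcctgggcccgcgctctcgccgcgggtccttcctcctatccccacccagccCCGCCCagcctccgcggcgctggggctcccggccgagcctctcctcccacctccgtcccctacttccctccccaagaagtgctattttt
KDM4C: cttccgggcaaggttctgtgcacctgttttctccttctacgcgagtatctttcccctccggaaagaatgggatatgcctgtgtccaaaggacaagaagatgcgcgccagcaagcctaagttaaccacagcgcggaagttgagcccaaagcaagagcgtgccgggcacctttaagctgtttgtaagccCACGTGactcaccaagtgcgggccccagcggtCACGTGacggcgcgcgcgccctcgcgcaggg

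The share of G and C in these 5 windows ran from 59.2% in KDM4C to 76.8% in HDAC4. KDM6B holds 4 GC boxes, KDM3A and HDAC9 2 each, HDAC4 1 and KDM4C 0, while KDM4C holds 2 E-boxes and HDAC4 1. The windows of the other 2 members that fell, not printed, do not follow this order: KDM4B holds 4 GC boxes and 1 E-box at 75.6% G and C, and HDAC8 holds 0 of either at 48.0%. RefSeq lists 5 starts for HDAC4 and HDAC9, so other starts of these genes have other promoters. It lists 1 for KDM4C, and a listed start need not be the first base of the gene span used here. An entry was found for 33 of the 36 members; HDAC5, SIRT7 and JMJD6 have none. The GC box was in 21 of the 33 windows (63.6%), against 42.2% of the 27305 promoters of all genes. Those 27305 include genes that did not pass the filter on low counts, which all members passed. The shares of members and of all promoters given here are thus of unlike sets. An E-box was in 5 windows (15.2%), those of HDAC4, SIRT1, KDM4B, KDM4C and KDM6A, against 6.46% of all promoters. It was in 3 of the 5 members that fell and in 0 of the 2 with an entry that rose. Of the other letters searched on both strands, CCAAT was in 10 windows (33.0% of all promoters), TGACGT in 4 (7.42%), TGACNNNGC in 4 (11.1%), GAANNTTC in 2 (5.85%) and TGACTCA in 2 (4.15%), whereas TATAAA (11.2%) and TGATGNAA (3.19%) were in none. In KDM4C the TGACTCA match begins within an E-box, so these letters are partly the same. These matches describe the letters of the windows and not the binding of a factor.

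Among the zinc-dependent deacetylases, 3 of 11 fell and 0 rose, beside 8.14% and 6.37% of all genes tested, and the median log2 fold change was -0.20. The 3 that fell are the longest of the 11, and of all genes of 200 to 400 kb 42.6% fell and of those over 400 kb 54.2%. The summed level of the 11 genes was 882 and 912 normalized CPM in DMSO and 681 and 665 in SGSS05-NS.

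Of the class I deacetylases, HDAC1, HDAC2 and HDAC3 are catalytic subunits of nuclear co-repressor complexes. All 4 genes of the class had both treated libraries below both controls, as had 36.9% of all genes tested, and 1 of the 4 passed the threshold. HDAC8 (chromosome X, 71549366 to 71792951 on hg19), a deacetylase known to act on cohesin, was at 29.5 and 24.9 normalized CPM in DMSO and at 13.6 and 15.9 in SGSS05-NS. Its groups lay well apart. The gene fell to 54.2% of its DMSO level (log2 fold change -0.88 ± 0.13 SE, edgeR adjusted p = 0.000239). HDAC3, the deacetylase of the NCoR complex, was at 76.2 and 76.0 in DMSO and 58.2 and 61.1 in SGSS05-NS. HDAC1 and HDAC2 form the paired core of NuRD, SIN3 and CoREST. HDAC1 was at 70.3 and 66.5 in DMSO and 55.7 and 58.8 in SGSS05-NS, and HDAC2 at 298 and 326 against 275 and 268. For these 3 genes the difference did not pass 0.001, with log2 fold changes of -0.35 for HDAC3 (adjusted p = 0.00806), -0.26 for HDAC1 (0.0398) and -0.20 for HDAC2 (0.0999) from edgeR's test. Summed over class I, the level was 474 and 493 in DMSO and 403 and 403 in SGSS05-NS.

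Class IIa deacetylases bind MEF2 factors and carry signals from kinases to chromatin, and their 4 genes moved apart. HDAC4 (chromosome 2, 239969864 to 240323348), expressed in neurons, had the lowest fold change of all members. It was at 27.7 and 26.5 normalized CPM in DMSO and at 7.70 and 9.23 in SGSS05-NS, from 620 to 695 fragments in the controls and from 171 to 217 in the treated cells. That is 31.3% of the DMSO level (log2 fold change -1.68 ± 0.13 SE, edgeR adjusted p = 2.35e-06). HDAC9 (chromosome 7, 18126572 to 19042039) had the highest level of the class per exon length in DMSO, 14.3 CPM per kb. It was at 238 and 257 normalized CPM in DMSO and 99.3 and 97.9 in SGSS05-NS. The gap between its groups was many times the gap within either group. HDAC9 fell to 39.9% (log2 fold change -1.33 ± 0.09 SE, adjusted p = 9.7e-07), the smallest p of all members. HDAC5, which shares the MEF2 function, was at 57.4 and 51.6 in DMSO and 82.3 and 69.5 in SGSS05-NS. Its treated libraries were both higher, but the difference did not pass 0.001 (log2 fold change 0.48 ± 0.11 SE, edgeR adjusted p = 0.00366). HDAC7, known from vessels and thymocytes, overlapped between the groups, at 51.8 and 48.4 against 55.1 and 50.6. The summed level of the class was 375 and 384 normalized CPM in DMSO and 244 and 227 in SGSS05-NS.

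Class IIb holds HDAC6, the tubulin deacetylase, and HDAC10, a polyamine deacetylase. HDAC6 was at 26.7 and 29.8 normalized CPM in DMSO and 26.1 and 27.5 in SGSS05-NS, so its groups overlapped (log2 fold change -0.08 ± 0.11 SE, edgeR adjusted p = 0.598). HDAC10, the lowest member per exon length, was at 0.638 and 0.514 against 0.811 and 0.808 from only 12 to 19 fragments per library, and a difference was not detectable at this depth (adjusted p = 0.281). It shares 2763 exon bases with MAPK12 on its own strand, and fragments in shared bases are not assigned to either gene. HDAC11, the sole class IV enzyme, which removes fatty acyl groups, was at 5.82 and 4.49 in DMSO and 7.53 and 6.12 in SGSS05-NS (log2 fold change 0.40 ± 0.19 SE, adjusted p = 0.11).

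Sirtuins couple deacylation to NAD, and most of the family was higher in treated cells although 1 member passed the threshold. In none of the 7 genes did the groups overlap: 5 were higher and 2 lower, where 37.8% of all genes tested were higher and 36.9% lower in this way, so that a lack of overlap is common here. Their median log2 fold change was 0.41, and their summed level was 140 and 134 normalized CPM in DMSO and 175 and 185 in SGSS05-NS. SIRT7 (chromosome 17, 79869815 to 79879199), a nuclear and nucleolar enzyme known for ribosomal RNA genes, was at 17.5 and 14.6 in DMSO and at 31.5 and 35.5 in SGSS05-NS. Both treated values were well above both controls. SIRT7 rose 2.09-fold (log2 fold change 1.06 ± 0.13 SE, edgeR adjusted p = 4.87e-05). It shares 105 exon bases on the same strand with MAFG, which rose 2.61-fold (adjusted p = 1.02e-06), and the part of these bases in the change of SIRT7 was not tested.

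SIRT1, the nuclear sirtuin known to deacetylate p53, had the highest level of the family per exon length in DMSO, 13.5 CPM per kb. It was at 63.1 and 60.3 normalized CPM in DMSO and at 82.1 and 81.8 in SGSS05-NS, 1.33-fold, and missed 0.001 (edgeR adjusted p = 0.00328). SIRT6, a chromatin-bound enzyme that acts at telomeres and in DNA repair, was at 16.2 and 14.8 against 18.8 and 22.5 (adjusted p = 0.0215). The cytoplasmic SIRT2 was at 20.6 and 22.9 against 23.8 and 26.9 (adjusted p = 0.149). The 3 mitochondrial members did not share a direction. SIRT4 was at 0.797 and 1.03 in DMSO and 1.58 and 1.40 in SGSS05-NS from 20 to 35 fragments per library (adjusted p = 0.0735). SIRT3, the main mitochondrial deacetylase, was at 12.4 and 11.6 against 10.7 and 10.3 (adjusted p = 0.259), and SIRT5, which removes succinyl and malonyl groups, at 9.76 and 8.60 against 6.76 and 6.97 (log2 fold change -0.42, adjusted p = 0.0448). All 3 of these adjusted p-values are from edgeR's test and none passed 0.001.

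The LSD pair was lower without passing the threshold. KDM1A (LSD1), the demethylase of the CoREST complex that acts on lysine of histone H3, had the highest level per exon length of all members in DMSO, at 29.3 CPM per kb. It was at 526 and 546 normalized CPM in DMSO and at 397 and 434 in SGSS05-NS, 77.4% of the DMSO level (log2 fold change -0.37 ± 0.10 SE, edgeR adjusted p = 0.00766). KDM1B (LSD2), which acts within gene bodies, was at 19.5 and 24.9 against 16.5 and 15.6 (log2 fold change -0.47 ± 0.14 SE, adjusted p = 0.0159). For both genes all treated libraries lay below the controls, as they did for 36.9% of all genes tested.

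JmjC demethylases included the highest fold change of all members, with a median log2 fold change of 0.02. Of the 16 genes, 3 rose and 2 fell, beside 6.37% and 8.14% of all genes tested. KDM6B (JMJD3; chromosome 17, 7737535 to 7758114), which removes the methyl groups placed by Polycomb on histone H3 and is known as an inducible gene, was at 11.6 and 17.3 normalized CPM in DMSO and at 45.2 and 37.7 in SGSS05-NS. The controls differed by more than those of most members, yet both treated values were over both of them. KDM6B rose 2.87-fold (log2 fold change 1.52 ± 0.17 SE, edgeR adjusted p = 2.46e-05). KDM6A (UTX), its paralog on the X chromosome, was at 42.2 and 45.2 in DMSO and 34.1 and 32.9 in SGSS05-NS (log2 fold change -0.38 ± 0.10 SE, adjusted p = 0.00835). The difference did not pass 0.001, and it had the opposite sign to that of KDM6B.

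JMJD6 (chromosome 17, 74708914 to 74722881), a nuclear enzyme known to hydroxylate lysine of splicing factors and described as an arginine demethylase, was at 31.9 and 30.2 normalized CPM in DMSO. In SGSS05-NS it was at 69.5 and 90.6, so the treated libraries differed from each other but both exceeded the controls. It rose 2.58-fold (log2 fold change 1.37 ± 0.13 SE, edgeR adjusted p = 6.44e-06). KDM3A (chromosome 2, 86667770 to 86719839), a demethylase of lysine on histone H3 that is known to respond to hypoxia, was at 45.0 and 52.2 in DMSO and 96.3 and 96.5 in SGSS05-NS. Its treated libraries were almost equal and well above the controls. KDM3A rose 1.98-fold (log2 fold change 0.99 ± 0.10 SE, adjusted p = 1.45e-05), while its paralog KDM3B, at 208 and 221 against 207 and 191, differed by -0.11 (adjusted p = 0.368).

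The KDM4 genes encode demethylases of the trimethyl marks of heterochromatin and gene bodies on histone H3, and 2 of the 3 listed fell. These 2, KDM4C and KDM4B, span 454.8 and 184.5 kb. Of all genes tested 54.2% fell over 400 kb and 15.2% from 100 to 200 kb. KDM4C (chromosome 9, 6720863 to 7175648) was at 18.3 and 18.96 normalized CPM in DMSO and at 6.17 and 9.61 in SGSS05-NS, 42.5% of the DMSO level (log2 fold change -1.24 ± 0.18 SE, edgeR adjusted p = 0.000184). Its treated values differed from each other but both were far under the controls. KDM4B (chromosome 19, 4969124 to 5153609) was at 51.0 and 55.1 against 35.9 and 33.0, 64.8% (log2 fold change -0.63 ± 0.10 SE, adjusted p = 0.000417). KDM4B was the called member nearest to the threshold, and with scaling by library size only its adjusted p was 0.00151, which does not pass. KDM4A had the same level in both groups within their spread, at 98.7 and 99.8 against 103 and 97.9 (log2 fold change 0.01 ± 0.09 SE, adjusted p = 0.917).

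The remaining JmjC genes did not pass the threshold. KDM2A, a reader of unmethylated CpG islands, came nearest, at 70.9 and 74.6 normalized CPM in DMSO and 103 and 99.5 in SGSS05-NS (log2 fold change 0.48 ± 0.09 SE, edgeR adjusted p = 0.00132). Its paralog KDM2B, which brings a Polycomb complex to CpG islands, was at 31.7 and 29.0 against 27.5 and 25.9 (adjusted p = 0.182). The 3 listed KDM5 genes, whose products take methyl groups off active promoters, stayed within log2 fold changes of 0.03 to 0.16: KDM5A was at 194 and 207 against 206 and 203, KDM5B at 244 and 239 against 273 and 264, and KDM5C at 141 and 143 against 163 and 134. PHF2, of the PHF family with a histone-reading finger, was at 60.5 and 61.6 against 52.0 and 47.8 (log2 fold change -0.29, adjusted p = 0.0253). PHF8, at 20.9 and 24.4 against 24.2 and 21.7, and KDM7A of the same family, at 59.2 and 61.0 against 66.8 and 59.8, overlapped between the groups, with log2 fold changes of 0.02 and 0.07.

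**Figure D2:**
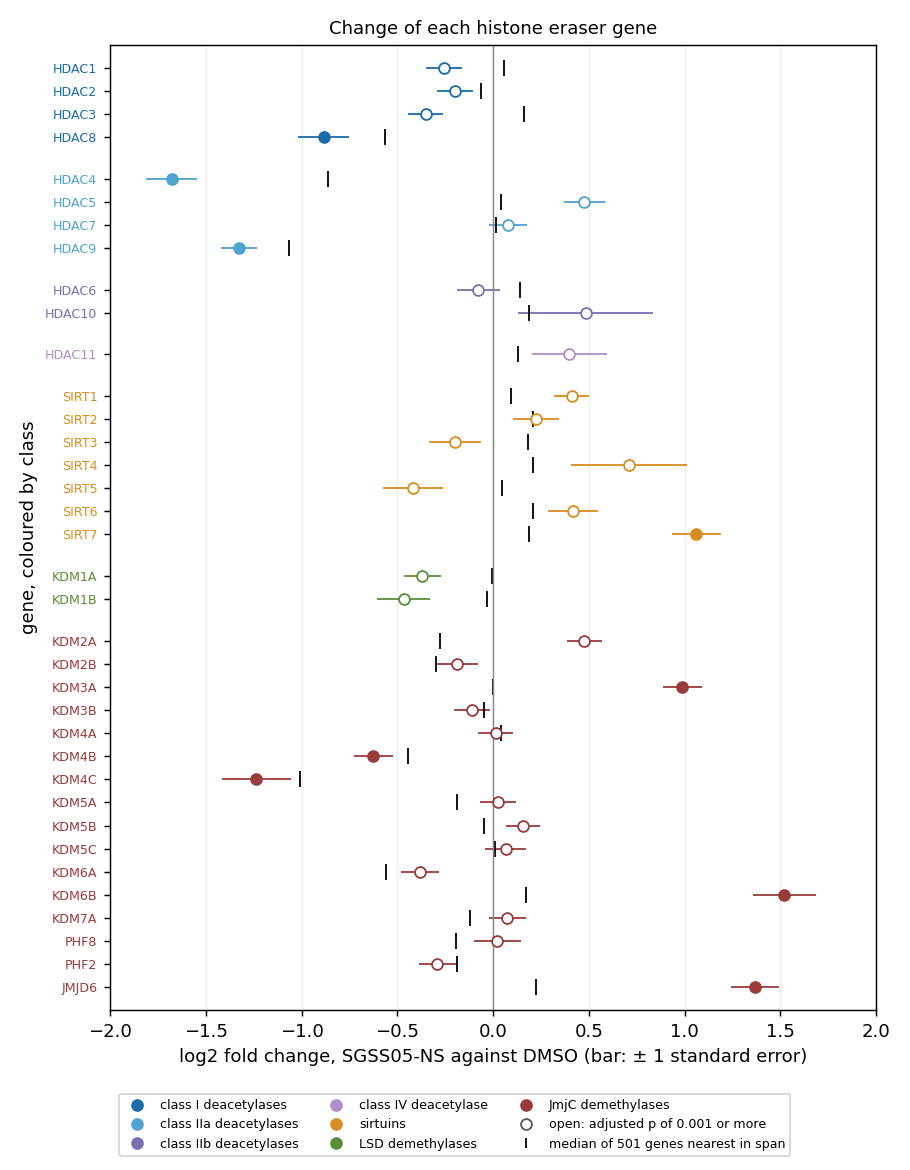
Log2 fold change of each of the 36 genes, SGSS05-NS against DMSO, with bars of 1 standard error on each side; filled points have an adjusted p under 0.001 and black ticks give the median of the tested genes nearest in span. All 4 class I deacetylases lie left of 0 and 5 of 7 sirtuins right of it, while the JmjC genes run from -1.24 for KDM4C to 1.52 for KDM6B.

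Classes were set side by side by count and median, since genes of a class are not replicates. The medians were -0.30 for class I, -0.63 for class IIa, 0.41 for sirtuins, -0.42 for the LSD pair and 0.02 for JmjC genes, beside 0.01 over all genes tested. The same classes differ in gene span, the distance from the first to the last annotated base. Sirtuin genes are short, from 8.46 to 40.9 kb with a median of 21.3 kb. Class I genes have a median span of 59.9 kb, class IIa of 202 kb and JmjC genes of 97.6 kb.

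All 5 members that fell span 184.5 kb or more, with 915.5 kb for HDAC9, 454.8 kb for KDM4C, 353.5 kb for HDAC4, 243.6 kb for HDAC8 and 184.5 kb for KDM4B. All 4 that rose span 52.1 kb or less, with 9.39 kb for SIRT7, 13.97 kb for JMJD6, 20.6 kb for KDM6B and 52.1 kb for KDM3A. KDM6A, with 240 kb, was the exception among the long members and was not called. The Spearman correlation of log2 fold change with span was -0.66 over the 36 members, and -0.60 without HDAC9 and HDAC4 (34 members). Over the 16042 tested genes with a known span it was -0.22. Within classes it was -0.66 over the 11 zinc-dependent deacetylases, -0.79 over the 7 sirtuins and -0.62 over the 18 demethylases. These are descriptions across genes of the same 4 libraries, with no test. With the merged exon length in place of span the correlation was -0.43, and with the mean level it was -0.01.

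Lower values at longer spans were also present over all genes of these libraries. Of the 369 tested genes over 400 kb, 54.2% fell and 1.08% rose, with a median log2 fold change of -1.10, and the 2 members of that size, HDAC9 and KDM4C, had a median of -1.28. From 200 to 400 kb, 42.6% of 772 genes fell and the median was -0.68, beside -0.88 for HDAC4, HDAC8 and KDM6A. From 10 to 30 kb, 10.3% of 3910 genes rose and 1.69% fell, with a median of 0.17, beside 0.31 for the 8 members of that size. Counts for members of each size are thus read beside these shares and not beside those of all genes.

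**Figure D3:**
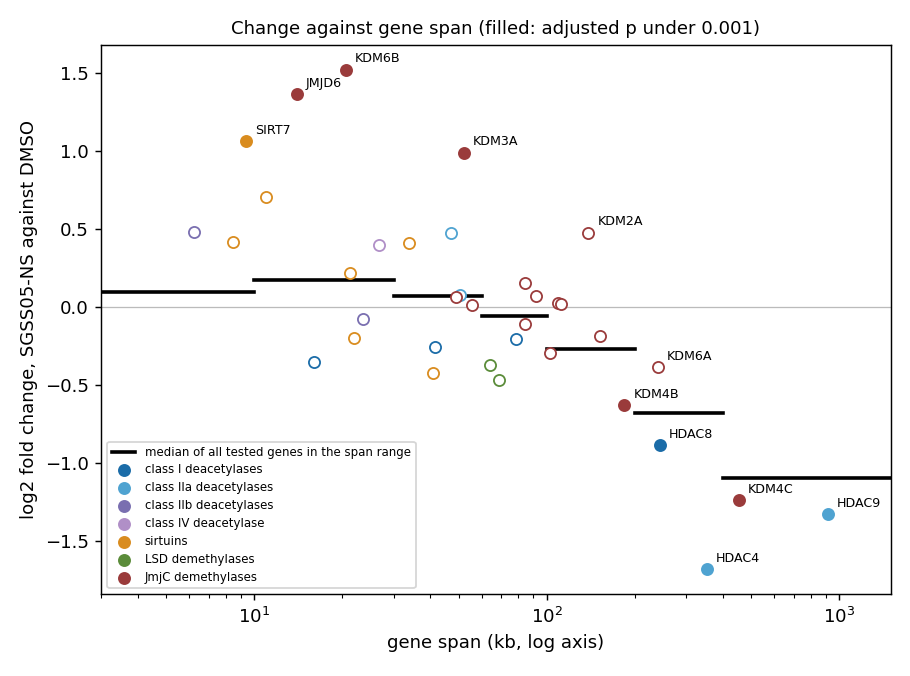
Log2 fold change against gene span in kb on a log axis for the 36 genes, coloured by class and filled where the adjusted p is under 0.001; black lines give the median of all tested genes in each span range. The members that fell lie at 184.5 kb or more, where the median of all genes goes down to -1.10; HDAC4 lies 0.82 below the median of genes of like span, and KDM6B, JMJD6, SIRT7 and KDM3A lie 0.88 to 1.35 above theirs.

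Each member was also set beside the tested genes nearest to it in span, the same number of genes for each. The members that rose stood above such genes, by 1.35 for KDM6B, 1.14 for JMJD6, 0.99 for KDM3A and 0.88 for SIRT7 on the log2 scale. Those that fell differed less from theirs: HDAC9 was lower by 0.26 than a median of -1.07, KDM4C by 0.23 than -1.01, KDM4B by 0.18 than -0.45 and HDAC8 by 0.32 than -0.56. HDAC4 stood lower by 0.82 than its median of -0.86. KDM2A, at 139 kb, stood 0.75 above the -0.28 of genes of like span. Seen this way the class I genes were all lower than genes of like span, with a median difference of -0.32, the LSD pair too, with -0.40, while the sirtuins had 0.21 and the JmjC genes 0.18. Over the 36 members the median difference was 0.06, with 16 below 0 and 20 above. No p was computed for these differences.

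Levels per merged exon length allow a rough comparison between genes. In DMSO the highest were 29.3 CPM per kb for KDM1A, 27.2 for KDM3B, 20.3 for HDAC2 and 19.2 for KDM4A. Then came 17.2 for HDAC1, 16.7 for KDM5A, 16.5 for HDAC3, 14.3 for HDAC9 and 13.5 for SIRT1. KDM1A and KDM3B differed by more than either SD between libraries (0.786 and 1.10, n = 2 each). The neighbours HDAC2 and KDM4A (SD 1.28 and 0.149) and HDAC1 and KDM5A (SD 0.669 and 0.796) did not differ beyond their spread. These SDs hold the spread of libraries within a gene and not the error of its exon length. They do not settle the order of genes. At the low end stood HDAC10 at 0.116, SIRT4 at 0.747, SIRT5 at 0.813 and HDAC11 at 0.986. The exons of all isoforms were merged, so a gene with many isoforms has a low value on this scale. The lengths are from GENCODE release 44, whereas the study counted fragments on an earlier release. Bases that were not counted can thus lower a value, by an amount that may differ between genes.

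Other genes of the same chromatin machinery were taken as lists. Of 40 co-repressor subunits, which hold the deacetylases and LSD1 on chromatin, 0 rose and 3 fell, beside 6.37% and 8.14% of all genes tested, so the share that fell is near that background. The median log2 fold change was -0.08. ZMYND8, a reader of histone acetylation, fell by 1.25 on the log2 scale (edgeR adjusted p = 1.47e-05). The NCoR subunits TBL1X and TBL1XR1 fell by 1.00 and 0.79 (adjusted p = 0.000114 and 3.84e-05). These genes span 148, 278 and 209 kb, and of all genes 15.2% fell from 100 to 200 kb and 42.6% from 200 to 400 kb. A list of 18 acetyltransferases was also taken, not all of which act on histones. Of these 18, 0 rose and 3 fell, beside the same 6.37% and 8.14% of all genes, with a median of -0.05. The 3 were NCOA2, by 1.02 (adjusted p = 9.73e-06), NCOA1 by 0.90 (5.41e-05) and KAT6B by 0.83 (7.42e-05), with spans of 294, 279 and 208 kb, the range in which 42.6% of all genes fell.

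Of 13 genes of NAD supply and use, 9 were tested, 1 rose and 2 fell, beside 6.37% and 8.14% of all genes tested, with a median of 0.18. NAMPT, which makes the precursor of NAD that sirtuins need, was at 58.0 and 64.8 normalized CPM in DMSO and 88.7 and 108 in SGSS05-NS and rose 1.60-fold (edgeR adjusted p = 0.000466). NMNAT2, the neuronal enzyme of the next step, and PARP1, which consumes NAD at DNA breaks, fell by 0.54 and 0.51 on the log2 scale (edgeR adjusted p = 0.000791 and 0.000893). The 3 called genes NAMPT, PARP1 and NMNAT2 span 37.7, 47.9 and 170.1 kb. From 30 to 60 kb 7.51% of all genes rose and 2.62% fell, and from 100 to 200 kb 15.2% fell. The count of 3 went to 1 without DMSO replicate 2. Without a library the co-repressor count went from 3 to 5 (DMSO replicate 1 or 2) and to 6 (SGSS05-NS replicate 1), and that of the acetyltransferases from 3 to 5 without DMSO replicate 2.

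**Figure D4:**
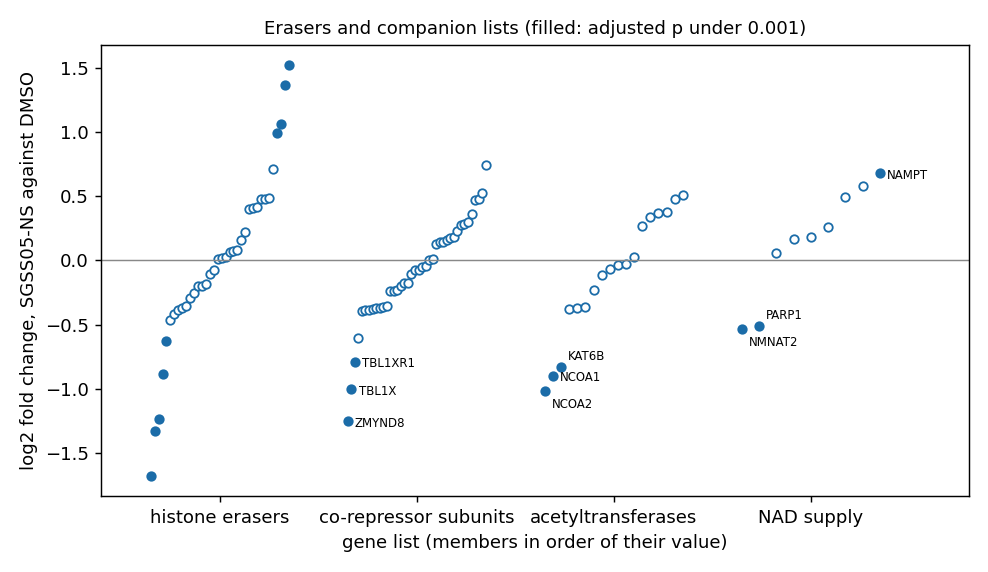
Log2 fold change, SGSS05-NS against DMSO, of the 36 histone erasers beside the tested genes of the 3 companion lists, each in order of its value; filled points have an adjusted p under 0.001. The erasers have 4 filled points above 0 and 5 below, the co-repressor subunits and the acetyltransferases 0 above and 3 below each, and the NAD genes 1 above and 2 below.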

How the data were processed

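RNA of 2 DMSO and 2 SGSS05-NS samples of SY5Y cells was sequenced. The authors trimmed reads with Trimmomatic 0.30, mapped these with STAR 2.4.2a on hg19 with a GENCODE annotation, and deposited counts of fragments per gene, raw and not pooled. The kit is TruSeq RNA per the labels; in the study's methods it is a stranded one for total RNA in which ribosomal RNA was depleted. The reverse-strand counts (column 4) were used, and summary rows were left out. Fragments that map to several places or lie in bases shared by 2 genes on 1 strand are not assigned, which lowers counts of genes with near-identical copies.

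Symbols, positions and merged exon lengths came from GENCODE release 44 on GRCh37; 2282 of 57820 identifiers had no entry. Genes were filtered with filterByExpr, libraries scaled with TMM, and SGSS05-NS was compared with DMSO by the quasi-likelihood test (edgeR 4.0.16, R 4.3.3), with Benjamini-Hochberg adjustment over 16468 genes, called under 0.001. The standard error is the size of the log2 fold change over the square root of F. Groups and replicate numbers came from the labels. The methods call the replicates independent biological ones; with 2 per group the precision of each value rests on few samples, beside gene totals of 21463105 to 25350204. Members and gene lists were chosen with earlier results of these data known. All 36 members are accounted for by class; of each companion list the called genes with the smallest p, at most 3, are named. The calculation was tested on simulated data. Alternatives were the likelihood ratio test that the study names, DESeq2 1.42.0, limma voom (limma 3.58.1), other scalings, filters and strand choice, the replicate block, a threshold of 0.05, exon length, 201 neighbouring genes, and leaving out each library. The replicate numbers were not taken as pairing: the replicate differences of the groups correlated at 0.05. Promoters came from RefSeq on GRCh38.p14, of which only windows and names were used.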

Additional observations from a re-analysis of the deposited data

Results flagged for a closer look

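Fragments on the strand opposite to a member were not part of the comparisons. Of the 10 members with at least 50 such fragments over the 4 libraries, 7 had more of them in both SGSS05-NS libraries than in both DMSO libraries, by a ratio of at least 1.5 in normalized CPM, and 0 had fewer by the same rule. Of the 3765 tested genes with as many such fragments, 34.8% had more by this rule and 6.80% fewer. The ratio of SGSS05-NS to DMSO was 5 for SIRT3, 2.63 for HDAC7, 2.50 for HDAC5, 2.25 for HDAC1, 1.86 for KDM3A, 1.84 for KDM4A and 1.83 for KDM1A. HDAC1 had 103 and 158 such fragments in DMSO and 259 and 301 in SGSS05-NS, 12.1% of its fragments on both strands, whereas its own strand was lower in the treated libraries. SIRT3 had 7 and 2 against 15 and 27, a small number, and HDAC5 54 and 49 against 114 and 129. KDM1A had 43 and 57 against 84 and 90. HDAC5, HDAC7, SIRT3 and KDM4A share exon bases with a gene on the opposite strand. HDAC9 was at 18.7 and 16.8 opposite-strand CPM in DMSO and 17.8 and 15.6 in SGSS05-NS, a ratio of 0.94, while its own strand fell. The share of all fragments counted on the other strand was 4.67% and 4.64% in DMSO and 5.05% and 5.04% in SGSS05-NS. Whether that shift has a part in these ratios was not tested.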

How the results depend on the processing

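For the 36 log2 fold changes, 308 of the values under another method kept their direction and call, 9 crossed the threshold, 1 lost its call (KDM4B, -0.59 with an adjusted p of 0.00151 with library size only) and 6 changed sign; with a library left out these numbers were 134, 3, 0 and 7. The sign changed only for genes near 0: KDM4A, KDM5A and PHF8 were at -0.013, -0.001 and -0.006 with no filter and at -0.020, -0.013 and -0.020 with counts without regard to strand. With a library left out, KDM4A ranged from -0.027 to 0.047, KDM5A from -0.031 to 0.057, KDM5C from -0.091 to 0.205, KDM7A from -0.015 to 0.152 and PHF8 from -0.095 to 0.115. The likelihood ratio test gave 7 erasers higher and 5 co-repressors. Over all genes it called 2022 higher and 2267 lower, beside 1049 and 1341 in the main test. Library size only gave 1 NAD gene, with 929 genes higher and 997 lower over all genes. No filter gave 10 co-repressors and 5 acetyltransferases, with 2034 higher and 2570 lower of 30755 genes tested. With the replicate block, whose pairing is not shown by the data, 6 erasers were higher and 5 lower, and 5 co-repressors were called. Over all genes the block gave 1759 higher and 2007 lower. At an adjusted p under 0.05 the counts were 8 erasers higher and 12 lower, 19 co-repressors, 9 acetyltransferases and 5 NAD genes. Of all genes tested, 22.6% were higher and 23.7% lower at that threshold. Counts without regard to strand gave a deacetylase median of -0.13. Exon length gave a correlation of -0.43 and a median difference of 0.14. With each library left out, erasers higher ranged from 4 to 6 and lower from 5 to 6, co-repressors from 3 to 6, acetyltransferases from 3 to 5 and NAD genes from 1 to 3; the medians ranged from -0.23 to -0.15 for deacetylases, 0.28 to 0.43 for sirtuins and -0.079 to 0.042 for demethylases, and the correlation with span from -0.68 to -0.61. An arm then has 1 library, which is assumed to vary like the other group. The cause of these changes was not tested. With 2 libraries per group and 1 cell line, low counts limit the values of HDAC10 and SIRT4.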
